A study of Mus musculus with 10 samples.

Results

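A set of 10 genes that encode transcription factors of endothelial lineages were followed in sinusoidal endothelium of the mouse liver (LSEC, the fenestrated cells that line its sinusoids) under 2 diets. The members were chosen by name, with earlier results of these data known: Prox1, Nr2f2, Sox7, Sox17, Sox18, Erg, Fli1, Maf, Tal1 and Meis2. Each was measured by 1 probe set, and together they made up 10 of 24704 named genes. All mice were female C57BL/6N animals, 10 weeks old when feeding began. One group received a CDAA diet, in which fat supplied 31% of calories and cholesterol made up 1%, and the other a control diet (labelled Std), each for 10 weeks. The labels do not spell out CDAA. Each diet had 5 arrays, numbered CDAA 1 to CDAA 5 or Std 1 to Std 5, and the cells of 3 mice were combined for each. Cells were taken from the non-parenchymal fraction by bead selection for CD146, which Mcam encodes, and the spread behind every test is that between pools of mice. The labels give the duration as 10 weeks in titles and growth protocol but in days in 1 field, and the former is used here. The series' design text speaks of mice lacking Gata4 in LSEC, which no sample label carries.

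Endothelial identity is set by a small number of transcription factors that act together on shared enhancers. ERG and FLI1 are ETS factors that keep endothelial genes such as those of junction proteins active. SOX7, SOX17 and SOX18 form the SOXF group, which works in vessel growth, arterial identity and lymphatic specification. PROX1 is the factor that turns venous endothelium into lymphatic endothelium, where SOX18 and COUP-TFII, the product of Nr2f2, help to switch it on, and it is also made by hepatocytes. COUP-TFII specifies venous identity, c-Maf, the product of Maf, belongs to the programme of LSEC, TAL1 acts at the branch between blood and endothelium, and MEIS2 is a homeobox partner of PBX and HOX proteins.

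Values are log2 signals in which every array has been brought to the same distribution, with an array median of 3.88. A difference is CDAA minus Std on this log2 scale, given with its standard error (SE). A gene is said to have risen or fallen when its Benjamini-Hochberg adjusted p over all 24704 genes, from limma's moderated linear model, was below 0.05. Signals of different genes are not compared, since each probe set has its own response. Of the 10 factors, none had a mean below the array median. Genes of the Y chromosome, which female mice lack, gave 1.82 to 4.00 on these arrays (7 genes).

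The promoter sequences of 1 factor that rose, 2 that fell and 1 that did not pass are shown because ETS factors are among the members and their recognition core can be looked for in each of them. RefSeq (GRCm38.p6) promoters were listed for 5 of the 10 factors, Prox1, Nr2f2, Erg, Tal1 and Meis2. Each run is the 250 bases before the outermost listed start, 5′ to 3′ on the strand of the gene, with capitals marking the ETS core AGGAA or its reverse complement TTCCT.
Prox1, chr1:190170828-190171077, minus strand: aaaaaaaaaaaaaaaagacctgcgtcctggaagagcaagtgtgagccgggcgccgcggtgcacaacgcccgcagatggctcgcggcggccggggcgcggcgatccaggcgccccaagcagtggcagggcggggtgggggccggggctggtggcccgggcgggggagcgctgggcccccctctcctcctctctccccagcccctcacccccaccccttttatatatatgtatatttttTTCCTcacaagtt
Nr2f2, chr7:70366747-70366996, minus strand: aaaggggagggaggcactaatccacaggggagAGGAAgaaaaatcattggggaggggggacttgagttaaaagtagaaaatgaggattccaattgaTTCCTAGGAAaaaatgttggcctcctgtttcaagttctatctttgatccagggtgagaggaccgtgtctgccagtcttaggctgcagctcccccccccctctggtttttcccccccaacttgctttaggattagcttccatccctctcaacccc
Erg, chr16:95586594-95586843, minus strand: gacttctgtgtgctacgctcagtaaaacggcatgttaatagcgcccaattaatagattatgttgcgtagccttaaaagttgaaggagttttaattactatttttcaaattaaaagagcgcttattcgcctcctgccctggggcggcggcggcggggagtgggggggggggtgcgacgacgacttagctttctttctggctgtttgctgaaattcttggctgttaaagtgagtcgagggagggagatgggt
Tal1, chr4:115056176-115056425, plus strand: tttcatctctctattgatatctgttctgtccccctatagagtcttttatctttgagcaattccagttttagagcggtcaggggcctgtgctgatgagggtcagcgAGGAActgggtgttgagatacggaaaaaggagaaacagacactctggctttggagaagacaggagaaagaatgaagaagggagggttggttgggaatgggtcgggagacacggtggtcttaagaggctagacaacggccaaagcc
Prox1 held 1 ETS core, Nr2f2 3, of which 2 lie end to end, Tal1 1 and Erg 0 in this window, and Meis2 also held 0. A core of these letters stood on either strand in 60.3% of all 32851 listed promoter windows of this length. The GATA motif AGATAA was found once, on the reverse strand of Tal1, against 9.99% of all windows, and the SOX motif AACAAT (9.42%) and the nuclear receptor motif AGGTCA (14%) in none of the 5. A match describes the letters only, and no match says only that they are not in this window.

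Prox1 was the 1 factor that rose with CDAA, and 7 of the 10 factors fell. The fallen genes were Sox7, Sox17, Sox18, Erg, Maf, Tal1 and Meis2, with differences of -0.58 to -0.79. Nr2f2 and Fli1 did not pass. Over all genes, 7.49% rose and 9.13% fell, and the median difference was -0.02, against -0.63 for the 10 factors. Because the factors were chosen with earlier results of these data known, these shares describe the list and do not test it. CDAA values lay below every Std value for Sox17, Maf, Tal1 and Meis2 and above every Std value for Prox1. Over all genes, all CDAA values lay below all Std values for 7.73% and above them for 6.16%. The isolate is a bulk sample, so fewer cells of a type and less RNA per cell cannot be told apart.

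**Figure D1:**
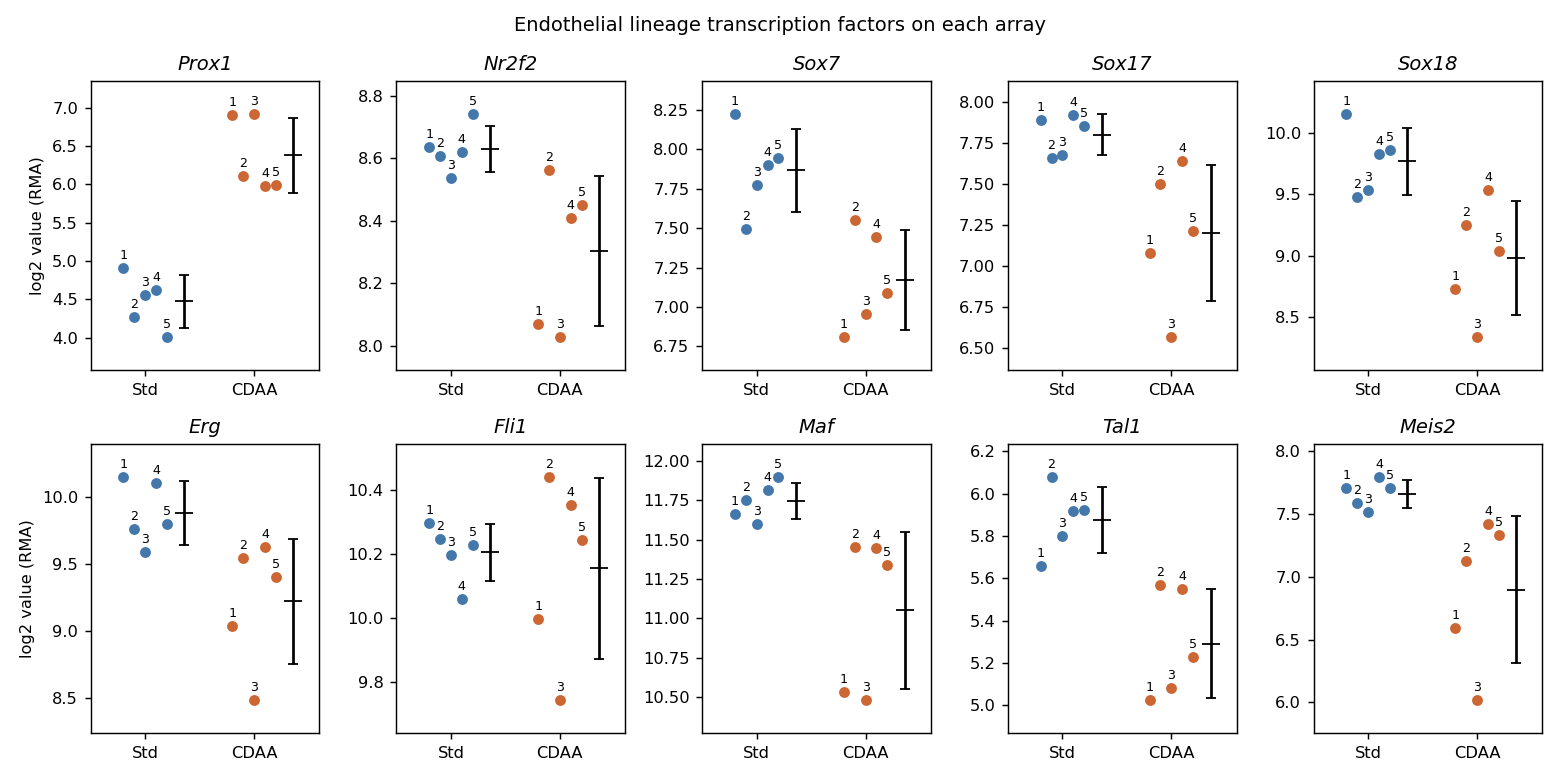
Log2 value (RMA, vertical axes, a separate range in each panel) of the 10 factors on the 5 Std and 5 CDAA arrays, numbered by replicate; black bars give the mean and SD of each diet. Prox1 runs from 5.98 to 6.92 with CDAA and from 4.01 to 4.91 with Std, and in the other 9 panels the lowest pair of points is CDAA 1 and CDAA 3.

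The spread between CDAA pools had the same form in every factor. CDAA 1 and CDAA 3 were the 2 lowest of the 10 arrays for all 9 factors other than Prox1, and the 2 highest for Prox1. Over all genes, this pair was lowest for 10.9% and highest for 8.27%. The mean of 13 pan-endothelial markers was also lowest in these arrays, at 9.96 in CDAA 3 and 10.32 in CDAA 1, against 10.74 to 11.04 in the other CDAA arrays and 11.30 to 11.44 in Std. The means of hepatocyte, recruited macrophage, stellate cell and cholangiocyte markers were highest in the same pair, and their part in the falls was not tested. Without CDAA 1 and CDAA 3, 1 of the 10 factors passed by limma (Prox1, rising) and 0 fell, while 5.28% of all genes rose and 5.29% fell. This pair is the lowest for the factors themselves, so the falls had to shrink. The differences of the 7 factors were then -0.33 to -0.51, each with a 95% interval below 0. At an unadjusted p below 0.05 by limma, 7 factors were lower and 1 higher, against 13.5% and 11.1% of all genes.

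Prox1 (19130_at), the master regulator of lymphatic fate, had log2 values of 6.91, 6.11, 6.92, 5.98 and 5.99 in CDAA 1 to CDAA 5. In Std 1 to Std 5 the values were 4.91, 4.27, 4.56, 4.62 and 4.01. The groups did not overlap, and the Std values began near the upper end of the signals of Y-linked genes, so the difference can understate the change in transcript. The means were 6.38 ± 0.49 with CDAA and 4.47 ± 0.34 with Std (SD, n = 5), a rise of 1.91 ± 0.23 (SE, limma adjusted p = 0.000244), or 3.75-fold in signal. The rise was 1.55 without CDAA 1 and CDAA 3 (limma adjusted p = 0.000696) and 1.77 to 2.02 when any single array was left out.

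The genes listed here as lymphatic or PROX1-linked did not follow Prox1 as a group. Of 11 measured lymphatic and PROX1-linked genes, 2 rose, 4 fell and 5 did not pass, with a median difference of -0.41. The 2 that rose were Pdpn, podoplanin, a surface glycoprotein of lymphatic endothelium and of some other cells, by 0.98 ± 0.13, and Fgfr3, a fibroblast growth factor receptor, by 1.77 ± 0.19. Those that fell included Flt4, the VEGF-C receptor, by 0.82 ± 0.18 and Nrp2, its co-receptor, by 0.68 ± 0.17. Neither is particular to the lymphatic list: Flt4 is also among 12 LSEC markers, of which 11 fell, and Nrp2 among the venous genes. Reln of this list is also among the stellate cell markers, and Ccl21a was not measured. The count is therefore not one of lymphatic endothelium alone. Itga9, an integrin of lymphatic valves, fell by 0.64, and the chemokine scavenger Ackr2 by 0.58. However, Ackr2 passed in only 3 of the 10 fits that left out 1 array (-0.69 to -0.44). It did not pass without CDAA 1 and CDAA 3 together (-0.29). Lyve1, the hyaluronan receptor that LSEC share with lymphatic vessels, stood at 11.46 ± 0.43 with CDAA and 11.88 ± 0.15 with Std (SD, n = 5; limma adjusted p = 0.157).

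Hepatocyte markers were measured beside Prox1, since hepatocytes make it too. Of 9 measured markers 3 rose, Ttr by 1.54, Alb by 1.28 and Hnf4a by 0.83, and Cyp2e1 fell by 1.13. Their mean was 6.71 to 7.90 in CDAA and 6.55 to 7.20 in Std, highest in CDAA 3 and CDAA 1. With that mean as a covariate Prox1 rose by 1.63 ± 0.18 (limma adjusted p = 0.000308) and Tal1 fell (-0.49). In this model 4.95% of all genes rose and 5.2% fell. The other 6 fallen factors did not pass there, at -0.39 to -0.58. The hepatocyte mean combines markers that moved both ways, so this model cannot show the part of hepatocytes in the rise of Prox1. That part was not tested. Cholangiocyte markers were higher on every CDAA array (7.41 to 8.28 against 4.40 to 5.48), and all 8 measured markers rose. The part of bile duct cells in the rise of Prox1 was not tested.

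Nr2f2 (11819_at), which encodes the venous factor COUP-TFII, had values of 8.07, 8.56, 8.03, 8.41 and 8.45 in CDAA 1 to CDAA 5. The Std arrays gave 8.64, 8.61, 8.54, 8.62 and 8.74. CDAA 2 overlapped the Std arrays and the other 4 CDAA values lay below them. The difference was -0.32 ± 0.12, with a 95% interval of -0.58 to -0.07 (limma adjusted p = 0.0802), and Nr2f2 passed without CDAA 2 (-0.39, limma adjusted p = 0.0430). Its paralogue Nr2f1, which encodes COUP-TFI, differed by -0.43 ± 0.17 and did not pass. Among 11 venous and COUP-TFII-linked genes 4 fell and 0 rose by limma, with a median difference of -0.29. The list joins venous genes to others linked to COUP-TFII, so its count is not one of venous genes alone. At an unadjusted p below 0.05 by limma, 2 were higher, named after their values were seen. These were Selp, by 0.80 (limma adjusted p = 0.0501), and Hey2, by 0.28. Besides Nrp2, Nrp1, a VEGF co-receptor, fell by 1.09 and the receptor Notch1 by 0.75. Ephb4, the ephrin receptor of veins, fell by 0.57 but did not pass when 8 of the 10 arrays were left out one at a time.

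All 3 SOXF genes fell. Sox18 (20672_at), which drives lymphatic specification, had values of 8.73, 9.25, 8.34, 9.54 and 9.04 in CDAA 1 to CDAA 5 and of 10.15, 9.48, 9.54, 9.83 and 9.86 in Std 1 to Std 5. Only CDAA 4 reached the range of the Std arrays. The fall was 0.79 ± 0.21 (SE, limma adjusted p = 0.0218), 1.73-fold in signal.

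Sox7 (20680_at) had values of 6.81, 7.55, 6.96, 7.44 and 7.09 in CDAA 1 to CDAA 5 and of 8.22, 7.50, 7.77, 7.90 and 7.94 in Std 1 to Std 5. CDAA 2 overlapped the lowest Std array, Std 2. Sox7 fell by 0.70 ± 0.17 (limma adjusted p = 0.0132). Sox17 (20671_at), a factor of arterial endothelium, had values of 7.08, 7.50, 6.57, 7.64 and 7.22 with CDAA and 7.89, 7.66, 7.68, 7.92 and 7.85 with Std. CDAA 4 came close to Std 2 without overlapping it, and Sox17 fell by 0.60 ± 0.17 (limma adjusted p = 0.0339).

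Sox7 kept its call whichever single array was left out, with differences of -0.79 to -0.61. Sox18 did not pass without CDAA 1, Std 1, Std 4 or Std 5 (-0.93 to -0.63 over the 10 fits). Sox17 did not pass without CDAA 1, CDAA 5, Std 1, Std 4 or Std 5 (-0.71 to -0.44). None of the 3 passed without CDAA 1 and CDAA 3 together, at -0.51 for Sox7, -0.35 for Sox17 and -0.49 for Sox18.

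SOX genes outside this group moved in both directions. Of 10 measured, 3 rose, 3 fell and 4 did not pass, with a median difference of 0.17. Sox9, a factor of bile duct epithelium, rose by 2.56 ± 0.37, and Sox4, which is broadly expressed, by 1.52 ± 0.18. Sox8 fell by 0.56 and Sox12 by 0.49. The CDAA means of Sox8, Sox12 and Sox2 (3.60, 2.77 and 2.85) lay below the array median and within the range of Y-linked signals. Sox2 (rising) and Sox13 (falling) passed narrowly, and each did not pass in 8 of the 10 fits that left out 1 array, with differences of 0.34 to 0.48 and -0.43 to -0.29.

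The 2 ETS factors differed from each other. Erg (13876_at) had values of 9.04, 9.54, 8.49, 9.63 and 9.40 in CDAA 1 to CDAA 5 and of 10.15, 9.76, 9.59, 10.10 and 9.80 in Std 1 to Std 5. CDAA 4 overlapped Std 3, and the fall was 0.66 ± 0.20 (limma adjusted p = 0.0447). Erg did not pass without CDAA 1, CDAA 3, CDAA 5, Std 1, Std 2, Std 4 or Std 5 (-0.76 to -0.48 over the 10 fits), nor without CDAA 1 and CDAA 3 together (-0.35).

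Fli1 (14247_at) had values of 10.00, 10.44, 9.74, 10.35 and 10.24 with CDAA and 10.29, 10.25, 10.20, 10.06 and 10.23 with Std. CDAA 2 and CDAA 4 were the highest arrays and CDAA 3 the lowest, so the diets overlapped. The difference was -0.05 ± 0.13, with a 95% interval of -0.33 to 0.23 (limma adjusted p = 0.857), and without CDAA 3 or without CDAA 1 and CDAA 3 its sign turned (0.05 and 0.14). FLI1 is also made by leukocytes, and markers of recruited macrophages were higher on every CDAA array (7.98 to 9.45 against 4.96 to 6.22 in Std), with 7 of 9 rising. The part of leukocytes in the level of Fli1 was not tested.

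The log2 value of Fli1 minus that of Erg on the same array, which is read only for its change between diets, was 0.93 ± 0.20 with CDAA and 0.32 ± 0.27 with Std (SD, n = 5), and the groups did not overlap. The change in gap was 0.61, with p = 0.00794 by a two-sided exact permutation test over 252 arrangements, the smallest it can give, and 0.0198 after adjustment over the 5 pairs of factors compared. These pairs were chosen with the single values known, and the adjustment does not cover that choice. Prox1 and Nr2f2, which act in sequence in lymphatic specification, changed in gap by 2.23 (exact permutation p = 0.00794, adjusted 0.0198). Prox1 alone already separated the diets and Nr2f2 was lower with CDAA. This gap therefore had to separate them too, and its p adds nothing to the rise of Prox1. Among the SOXF genes the change in gap was -0.19 for Sox18 and Sox17 (exact permutation p = 0.0397, adjusted 0.0662), -0.09 for Sox18 and Sox7 (0.548) and -0.10 for Sox7 and Sox17 (0.524, adjusted 0.548 for both), and none passed after adjustment. Of other ETS genes, Ets2 fell by 0.62 ± 0.13 and Elk3 by 0.65 ± 0.15, whereas Ets1 differed by -0.25 ± 0.16 and did not pass.

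Of endothelial genes listed here as targets of ETS or SOXF factors, 17 of the 19 measured were lower, and 53.7% of all genes were lower. By limma, 10 fell, 1 rose and 8 did not pass, with a median difference of -0.64. Flt1, a VEGF receptor, fell by 1.34 ± 0.21, the Notch ligand Dll4 by 1.31 ± 0.22, the guidance receptor Robo4 by 1.10 ± 0.20 and the tight junction gene Cldn5 by 0.98 ± 0.19. The junction gene Cdh5 fell by 0.64 but did not pass without Std 4 (-0.63). Vcam1, an adhesion molecule of activated endothelium that macrophages and mesenchymal cells can also make, rose by 0.77 ± 0.12. These 19 genes include 11 of the 13 pan-endothelial markers, so the lists are not separate evidence.

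Maf (17132_at), a factor of the LSEC programme that macrophages also express, had values of 10.53, 11.46, 10.48, 11.44 and 11.34 in CDAA 1 to CDAA 5. Std 1 to Std 5 gave 11.66, 11.75, 11.60, 11.81 and 11.90. CDAA 1 and CDAA 3 were the low pair, and all 5 CDAA values lay below the Std arrays. The means were 11.05 ± 0.50 with CDAA and 11.74 ± 0.12 with Std (SD, n = 5). Maf fell by 0.69 ± 0.20 (limma adjusted p = 0.0324). It did not pass without CDAA 1, CDAA 3, Std 1, Std 2, Std 4 or Std 5 (-0.80 to -0.55), nor without CDAA 1 and CDAA 3 together (-0.33). Among 16 LSEC genes set beside Maf, 12 fell and 0 rose by limma (0 were higher at an unadjusted p below 0.05), with a median difference of -0.88. Cd209b, a C-type lectin, fell by 2.34. Ehd3, which acts in endocytic trafficking, fell by 1.59 and the iron-regulating ligand Bmp2 fell by 1.25. The uptake receptors Mrc1 and Stab2 fell by 1.00 and 0.89. Kupffer cell markers, taken as the other main source of Maf, had means of 8.50 to 9.53 in CDAA and 8.67 to 9.73 in Std, with 4 of 10 fallen (Clec4f, Vsig4, Timd4 and Marco) and Cd68 risen, names given after the values were seen. Their part in the level of Maf was not tested.

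Tal1 (21349_at), a basic helix-loop-helix factor, had values of 5.03, 5.57, 5.08, 5.55 and 5.23 in CDAA 1 to CDAA 5 and of 5.66, 6.08, 5.80, 5.92 and 5.92 in Std 1 to Std 5. All CDAA values were below all Std values. Tal1 fell by 0.58 ± 0.13 (limma adjusted p = 0.00958), kept its call when any single array was left out (-0.65 to -0.52), and did not pass without CDAA 1 and CDAA 3 (-0.43, limma adjusted p = 0.0581). Of its 11 measured partners and blood targets, 2 fell and 0 rose by limma (1 was higher at an unadjusted p below 0.05), with a median difference of -0.21. The fallen genes were Gata2, by 1.16 ± 0.24, and the erythropoietin receptor Epor, by 1.11 ± 0.15. The partners that bridge its complex did not pass: Lmo2 differed by 0.03 ± 0.10 and Ldb1 by -0.21 ± 0.12. The related factor Lyl1 did not pass either (-0.31 ± 0.15). The erythroid and megakaryocyte marker mean was 3.85 to 4.04 in CDAA and 4.06 to 4.32 in Std, near or only slightly above the array median, with 1 of 8 markers (Epor) fallen.

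Meis2 (17536_at), a TALE homeobox factor, had values of 6.59, 7.12, 6.02, 7.42 and 7.33 in CDAA 1 to CDAA 5. Std 1 to Std 5 gave 7.71, 7.58, 7.51, 7.79 and 7.70. The Std arrays lay close together and every CDAA array lay below them. The fall was 0.76 ± 0.23 (limma adjusted p = 0.0383), and CDAA 3 was the farthest from Std. Meis2 did not pass without CDAA 1 or any single Std array (-0.89 to -0.54 over the 10 fits), nor without CDAA 1 and CDAA 3 (-0.37). Its paralogue Meis1 fell by 1.24 ± 0.19 (limma adjusted p = 0.00109), also when any single array was left out (-1.40 to -1.11). Of 7 measured MEIS partners, Meis1 fell, the repressor Tgif1 rose by 1.09 ± 0.15 and 5 did not pass, with a median difference of -0.27.

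**Figure D2:**
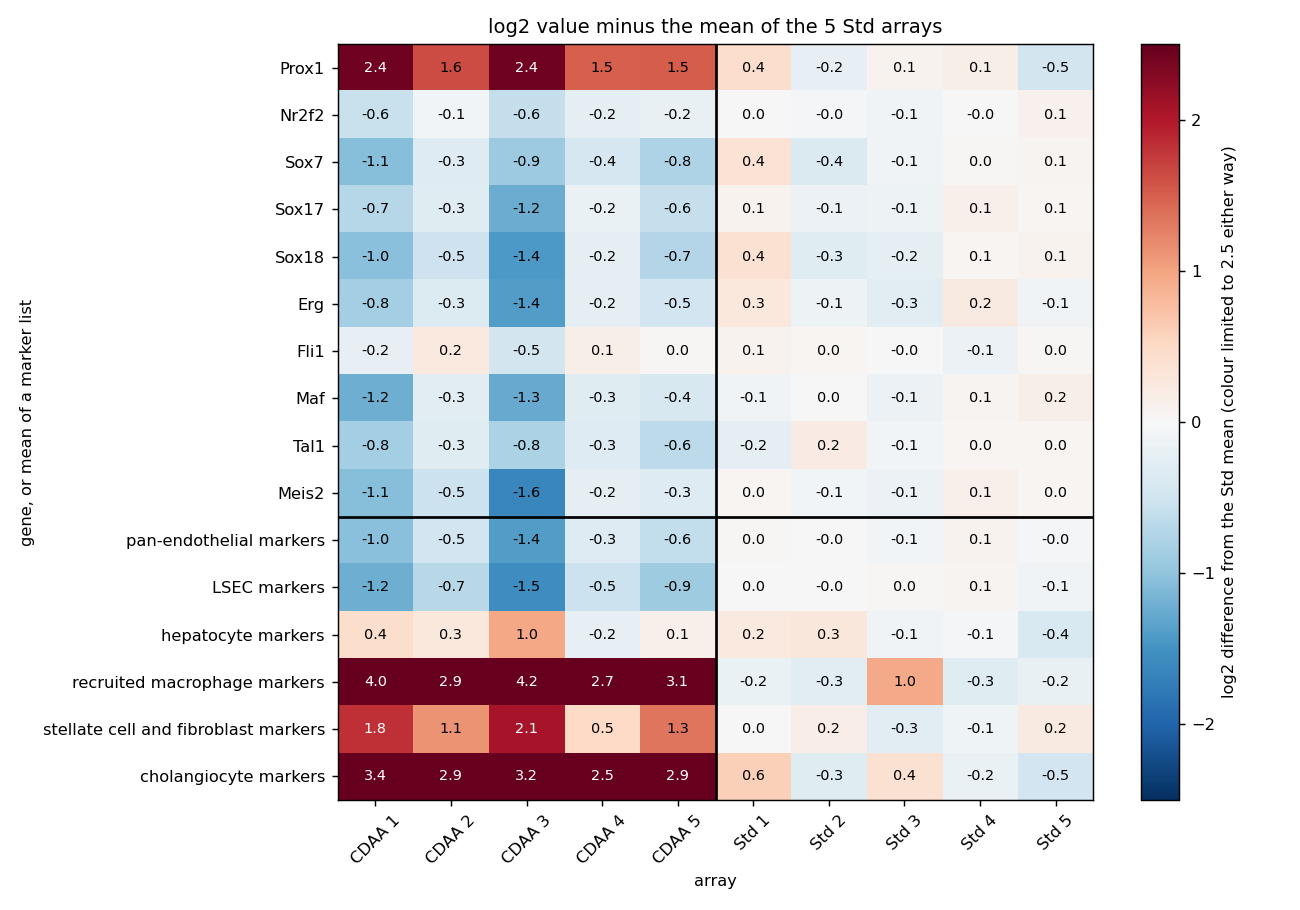
Log2 value of each factor (upper 10 lines) and mean log2 value of 6 marker lists (lower 6) on each array, minus the mean of the 5 Std arrays; red is higher and blue lower, and numbers in cells are the differences. CDAA 1 and CDAA 3 are the lowest CDAA arrays for 9 factors and for pan-endothelial and LSEC markers, and Prox1 and the other marker lists are highest there.

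The falls were next set against endothelial markers as a whole. With each array's pan-endothelial mean subtracted from all genes, the differences of the 7 fallen factors came to -0.02 to 0.19 and none passed by limma, adjusted or at an unadjusted p below 0.05. This shifts every gene by the same amount, so the median of all genes moved from -0.02 to 0.75 and 80.6% of all genes rose and 0.445% fell by this measure. On that scale Prox1 (2.68), Fli1 (0.72) and Nr2f2 (0.45) rose, and the values of Fli1 and Nr2f2 lay below the median of all genes. With the LSEC marker mean subtracted, which was added after the data were seen, 5 factors rose (Prox1, Nr2f2, Sox17, Fli1 and Tal1) and 0 fell by limma (0 lower at an unadjusted p below 0.05). Over all genes 92.6% then rose and 0.251% fell, against which the 5 of 10 are read. The spread between CDAA arrays was smaller for most factors after the pan-endothelial mean was subtracted. The SD among CDAA arrays was 0.47 for Erg and 0.46 for Sox18 before and 0.07 for both after it. It went from 0.42 to 0.10 for Sox17, 0.50 to 0.16 for Maf, 0.58 to 0.19 for Meis2 and 0.28 to 0.18 for Fli1. For Prox1 the SD was 0.49 before and 0.91 after. It was 0.26 before and after for Tal1, 0.32 before and 0.26 after for Sox7, and 0.24 before and 0.25 after for Nr2f2.

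When the pan-endothelial mean entered the model as a covariate, 0 of the 10 factors passed by limma and 2 were higher at an unadjusted p below 0.05 (6.93% of all genes). Over all genes 0.636% rose and 0.279% fell in that model. The estimate for Prox1 was then 1.17 ± 0.29 (limma adjusted p = 0.103), with a 95% interval of 0.52 to 1.81. That covariate moved with the diet, since all CDAA arrays had a lower pan-endothelial mean than all Std arrays.

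**Figure D3:**
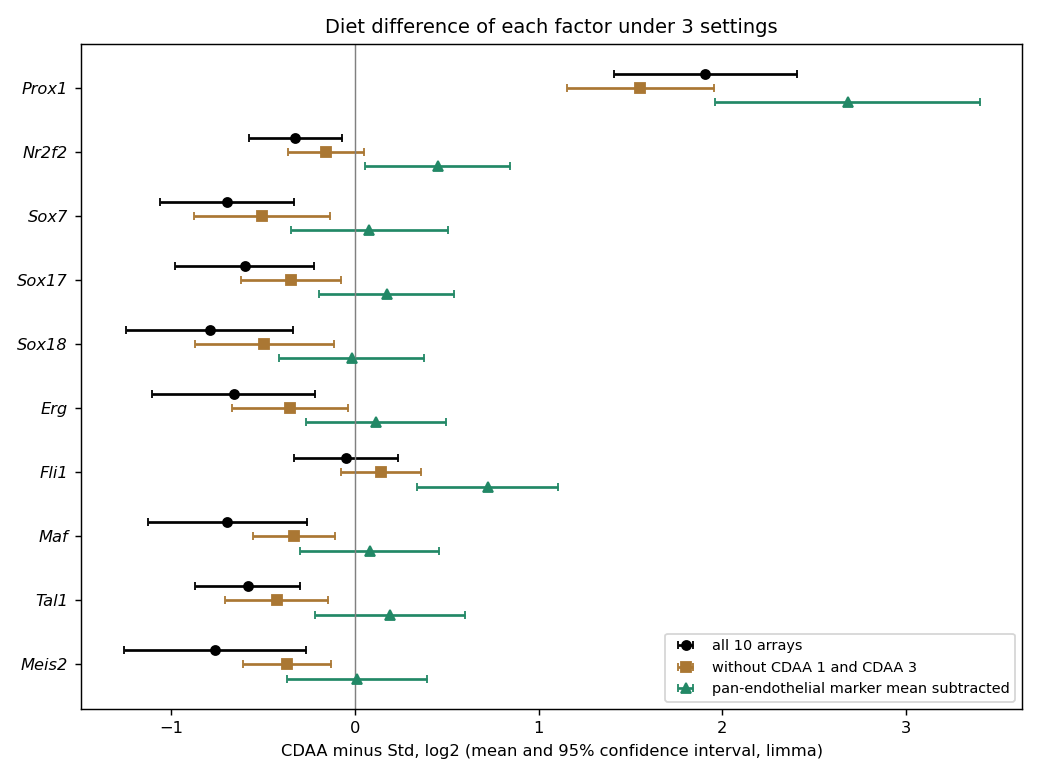
CDAA minus Std difference on the log2 scale (horizontal axis) of each factor, with 95% confidence intervals from limma, in 3 fits: all 10 arrays, without CDAA 1 and CDAA 3, and after subtraction of each array's pan-endothelial mean. Prox1 lies at 1.91, 1.55 and 2.68, and the 7 fallen factors lie at or near 0 in the third fit, where the median of all genes is 0.75.

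Other transcription factors and cofactors of endothelium moved in both directions. Of 38 measured, 8 fell, 2 rose and 28 did not pass, with a median difference of -0.23, and 27 of the 38 differences were below 0, as were 53.7% over all genes. The share that fell was not tested against that of the 10 members. The fallen genes were Meis1, Gata2, the hypoxia factor Epas1 (by 1.03 ± 0.17), Tfec (by 0.86 ± 0.22), Foxo1 (by 0.78 ± 0.15), Elk3, Ets2 and the flow-responsive Klf2 (by 0.58 ± 0.11). All 8 also fell without CDAA 1 and CDAA 3. Gata6, a zinc finger factor that other liver cells can express, rose by 1.64 ± 0.22 (limma adjusted p = 0.000492), with no overlap between diets. Hhex, a homeobox factor of liver and endothelium, rose by 0.57 ± 0.18 (limma adjusted p = 0.0435). It did not pass in 9 of the 10 fits that left out 1 array (0.49 to 0.74), but rose by 0.76 without CDAA 1 and CDAA 3. Gata4, the LSEC master regulator, was not called at a difference of -0.52 ± 0.17 (limma adjusted p = 0.0556), close to the threshold. Its CDAA values all lay below its Std values (8.94 to 9.97 against 9.98 to 10.28), as for 7.73% of all genes.

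**Figure D4:**
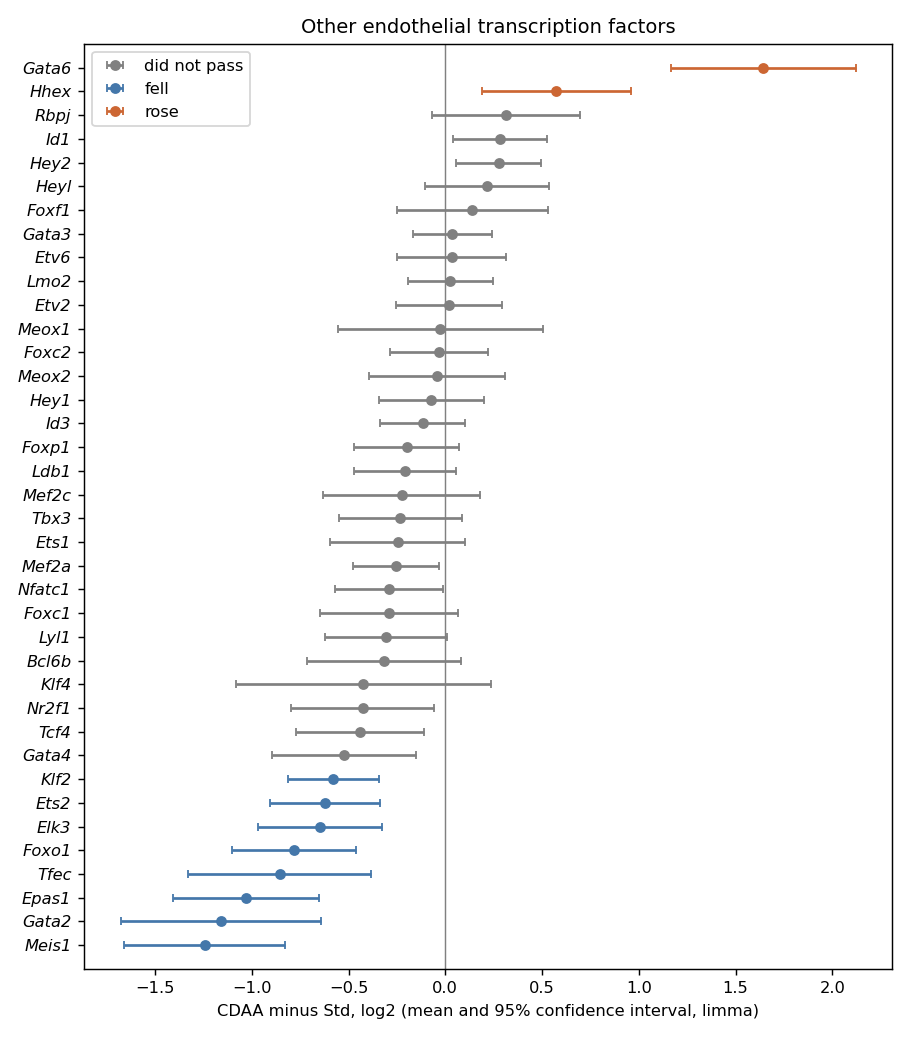
CDAA minus Std difference on the log2 scale (horizontal axis, mean and 95% confidence interval from limma) of 38 other transcription factors and cofactors of endothelium, ordered by difference and coloured by whether they rose, fell or did not pass. Gata6 at 1.64 and Hhex at 0.57 stand to the right, and 8 genes from Klf2 at -0.58 to Meis1 at -1.24 stand to the left.

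Markers of the labelled cell type were measured in both diets and were lower with CDAA. The LSEC marker mean was 10.43 to 11.45 in CDAA and 11.89 to 12.05 in Std, with 11 of 12 markers fallen (11 of the 12 are also among the 16 genes set beside Maf, so both counts rest largely on 1 set of genes), and 10 of 13 pan-endothelial markers fell. The bead target Mcam was not called at a difference of 0.12 ± 0.15 (limma adjusted p = 0.664), but rose by 0.35 without CDAA 1 and CDAA 3. Stellate cell and fibroblast markers were higher on every CDAA array (6.62 to 8.18 against 5.86 to 6.34), with 5 of 10 rising (Pdgfrb, Col1a1, Col1a2, Col3a1 and Lum, named after their values were seen). Of lymphocyte and neutrophil markers 0 of 7 and 0 of 8 passed by limma (0 of each at an unadjusted p below 0.05). The neutrophil marker mean was 5.36 to 5.92 in CDAA, and 8.49 in Std 3 against 4.09 to 4.49 in the other Std arrays. Of the 10 fits that left out 1 array, the neutrophil gene S100a9 passed only without Std 3 (limma adjusted p = 6.21e-05). With Std 3 included, the count of 0 does not settle whether neutrophil markers changed. Differences are thus those of the isolate, and the part of other cells in them was not tested.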

How the data were processed

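RNA of LSEC pooled from 3 mice was measured on 1 array per pool, 5 pools per diet. The deposited values are log2 expression values that the authors made with RMA (background correction, quantile normalisation and probe set summary), per the submitters' processing notes; software versions, genome build and array design are not given in the sources used here. Quantile normalisation gives all arrays 1 distribution, so a difference is relative to the other genes. Log2 values ran from 1.56 to 14, and the number of arrays limits precision. Of 25428 probe sets, 24705 had 1 symbol and 723 none; 1 gene had 2 probe sets, and the brighter was kept, leaving 24704 genes.

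Diets were compared with limma 3.58.1 in R 4.3.3 (lmFit and eBayes, all 10 arrays, no covariate), with p adjusted by Benjamini-Hochberg across the 24704 genes and called below 0.05. Gaps between factors were compared by exact permutation. Scripts were tested on simulated data. Members and gene lists were chosen with earlier results of these data known. Genes were named by a rule on list membership and size of change (67), and 14 more were added after their values were seen. Promoters came from RefSeq (GRCm38.p6).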

Additional observations from a re-analysis of the deposited data

Results flagged for a closer look

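No value of the 10 factors stood apart from the other 4 arrays of its diet by Dixon's criterion, whose 95% critical value for 5 arrays is 0.71. Among the 198 groups of 5 arrays examined for the named genes and marker lists, 7 did, and chance alone flags about 1 in 20. Nrp2 was 10.47 in Std 4 against 10.25 to 10.30 in the other Std arrays. Hhex was 6.99 in CDAA 3 against 7.74 to 7.95 in the other CDAA arrays, and without CDAA 3 it was higher with CDAA by 0.74. Klf2 was 8.66 in CDAA 5 against 9.03 to 9.08. Lyl1 was 5.79 in Std 2 against 6.04 to 6.14. The other 3 all concerned Std 3. The neutrophil gene S100a9 was 9.99 there against 4.44 to 4.98, the mean of neutrophil markers was 8.49 against 4.09 to 4.49, and the mean of recruited macrophage markers was 6.22 against 4.96 to 5.09.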

How the results depend on the processing

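Precision rests on 5 pools per diet. The 7 falls lost their calls without CDAA 1 and CDAA 3, at -0.33 to -0.51, and 5 of the 7 also when CDAA 1, Std 1, Std 4 or Std 5 alone was left out, whereas the rise of Prox1 passed in every alternative except the pan-endothelial covariate. In each case below the cause was not tested. All genes changed numbered 4106 (1851 risen, 2255 fallen). Leaving out 1 array each gave 2956 to 4572 (1402 to 1989 risen, 1554 to 2583 fallen) and 3 to 9 changed factors, with 2 to 8 fallen and 1 risen. The fallen factors numbered 2 without CDAA 1, Std 1, Std 4 or Std 5, 4 without Std 2 and 8 without CDAA 2. Without CDAA 1 and CDAA 3, 2612 genes changed (1307 fallen), with 1 changed factor and 0 fallen, and Fli1 was 0.14. A test against a log2 change of 0.5 called 452 genes (357 risen, 95 fallen), with 1 changed factor and 0 fallen (0 lower at an unadjusted p below 0.05 by limma). The hepatocyte covariate left 2507 genes (1223 risen, 1284 fallen) and 2 changed factors with 1 fallen, and Fli1 was 0.068. Fli1 was also 0.054 with array weights. Leaving out 1 array each gave -0.12 to 0.052 for Fli1, above 0 without CDAA 3, and -0.018 to 0.078 for Lmo2, below 0 without CDAA 5.

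With the pan-endothelial covariate, 226 genes changed (157 risen, 69 fallen) and 0 factors by limma, none risen or fallen. The sign turned for Nr2f2 (0.046), Sox17 (0.12), Sox18 (0.027), Erg (0.18), Fli1 (0.41), Maf (0.12), Meis2 (0.23), Gata4 (0.18), Lyve1 (0.30), Nrp2 (0.044), Ephb4 (0.14), Ldb1 (0.11), Ets1 (0.39), Nr2f1 (0.25), Ackr2 (0.14) and Cdh5 (0.050). With the pan-endothelial mean subtracted, 20012 genes changed (19902 risen, 110 fallen) and 3 factors (3 risen, 0 fallen). The sign turned for Nr2f2 (0.45), Sox7 (0.077), Sox17 (0.17), Erg (0.12), Fli1 (0.72), Maf (0.080), Tal1 (0.19), Meis2 (0.011), Gata4 (0.25), Lyve1 (0.36), Elk3 (0.13), Ets2 (0.15), Nrp2 (0.093), Notch1 (0.029), Ephb4 (0.21), Sox8 (0.22), Sox12 (0.29), Klf2 (0.19), Lyl1 (0.47), Ldb1 (0.57), Ets1 (0.53), Nr2f1 (0.35), Itga9 (0.13), Ackr2 (0.19), Sox13 (0.40) and Cdh5 (0.14), all below that scale's median of 0.75. Subtracting the LSEC mean, an alternative added after seeing the data, shifted the median to 0.95. It called 22943 genes (22881 risen, 62 fallen) and 5 factors (5 risen, 0 fallen), at 0.65 for Nr2f2, 0.28 for Sox7, 0.38 for Sox17, 0.18 for Sox18, 0.32 for Erg, 0.93 for Fli1, 0.28 for Maf, 0.39 for Tal1 and 0.21 for Meis2.

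Array numbers are shared between diets. Deviations of same-numbered arrays correlated at 0.0164 to 0.249, over 0.1 for 3 of 5 numbers, and 3 of 5 CDAA arrays correlated best with the Std array of their own number. This leaves pairing unsettled, and the numbers were not taken to pair the arrays. A replicate block called 4178 genes (1893 risen, 2285 fallen) and left the factors at 1 risen and 7 fallen. With it Gata4 fell (-0.52, limma adjusted p = 0.0429), and Ackr2 (0.0672) and Sox13 (0.0619) did not pass.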
